A study of Mus musculus with 75 samples.

Results

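Cotl1, Pmp22, Grasp, Tmem229b, Zfp703, Fignl2, Nol4l and Fhad1 are 8 mouse genes chosen by their counts in receptor knockout libraries, where their transcripts fell strongly when retinoic acid receptor alpha (RARA) or retinoid X receptor alpha (RXRA) was knocked out, out of 52535 entries in the table of gene counts. Because of that choice their knockout values are given as a description, without tests. The same genes were then followed in separate libraries in which either receptor was overexpressed, and in libraries in which an enhancer of the Cyp26 genes was deleted. The rule of choice uses no value of these libraries, although earlier results from them were known when the genes were chosen.

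All cells were E14 mouse embryonic stem cells that had been moved out of LIF and the inhibitors of the 2i medium (PD0325901 and CHIR99021) and given 2 µM retinoic acid (RA) for 24 h. Of the 75 samples in the series, 23 were RNA-seq libraries. The knockout table held Rarα-KO, Rxrα-KO and the combined RARX-DKO with their control WT-RARX (n = 2 each). The overexpression table held Rarα-OE and Rxrα-OE with V-OE, read here as the vector control (n = 2 each). The enhancer table held Cyp26-E1-KO and Cyp26-E2-KO with their control WT-Cyp26 (n = 3 each). Every control therefore also had RA for 24 h, and no library of untreated cells is used here. The titles of the Cyp26-E2 libraries leave out the word KO, and the mutant columns of that table are coded Ac and b, which were matched to E1 and E2 through similar codes in the 4C-seq files. That match is unsure, so every E1 or E2 value below carries this doubt. The labels call replicates biological without saying that cultures were separate, so p-values measure the spread between these libraries. They do not give the promoter of the overexpression vectors or how many clones a line stands for.

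RA is a vitamin A derivative that enters the nucleus and binds RARs, which work as heterodimers with RXRs. The pair sits on DNA at direct repeats of a short core sequence and, on binding ligand, exchanges corepressors for coactivators, so that nearby genes are transcribed. In stem cells RA drives exit from self-renewal, and the Cyp26 enzymes, themselves induced by RA, break it down again.

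The 8 genes lie on 6 chromosomes. Coordinates are from GENCODE vM21 on mm10, and all 8 are protein coding. Cotl1, coactosin-like protein, which binds filamentous actin, is at chr8:119809222-119840544 on the minus strand. Pmp22, a membrane glycoprotein of compact myelin, is at chr11:63128982-63159547 on the plus strand. Grasp, also called tamalin, a scaffold for metabotropic glutamate receptors and cytohesins, is at chr15:101224188-101232756 on the plus strand. Fignl2, a fidgetin-like member of the AAA ATPases, is at chr15:101050194-101078567 on the minus strand, with 146 kb between it and Grasp. Tmem229b, a predicted membrane protein, is at chr12:78961795-79007627 on the minus strand. Zfp703, a zinc finger corepressor whose human counterpart is amplified in breast cancer, is at chr8:26977325-26981461 on the plus strand. Nol4l, nucleolar protein 4-like, is at chr2:153407462-153529971 on the minus strand. Fhad1, which carries a forkhead-associated phosphopeptide-binding domain, is at chr4:141890438-142015082 on the minus strand.

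Direct repeats in which each core was AGGTCA or AGTTCA or GGGTCA or GGTTCA, spaced by 1, 2 or 5 bases (DR1, DR2 and DR5), were looked for on both strands within 10 kb of the gene starts. The search covered 6 of the 8 genes, Cotl1 and Zfp703 being left out, and the same windows of 11133 tested genes for comparison. The matches are shown because they let the 6 genes be compared at the kind of sequence the receptor pair recognises. Apart from the DR2 matches of Grasp, each is printed 5′ to 3′ from mm10 (RefSeq GRCm38.p6) on the strand of the match with 10 bases on each side, and the capitals mark the repeated cores.
Pmp22 DR1, chr11:63124354-63124386, minus strand: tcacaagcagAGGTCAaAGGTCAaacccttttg
Nol4l DR1, chr2:153520965-153520997, plus strand: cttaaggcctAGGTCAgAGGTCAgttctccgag
Fhad1 DR1, chr4:142022308-142022340, plus strand: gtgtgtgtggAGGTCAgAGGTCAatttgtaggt
Fhad1 DR2, chr4:142009255-142009288, plus strand: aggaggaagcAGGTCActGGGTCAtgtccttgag
Fhad1 DR5, chr4:142017706-142017742, plus strand: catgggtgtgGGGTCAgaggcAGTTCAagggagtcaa
Grasp DR5, chr15:101234114-101234150, minus strand: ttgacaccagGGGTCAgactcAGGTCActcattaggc
Fignl2 DR2, chr15:101085832-101085865, minus strand: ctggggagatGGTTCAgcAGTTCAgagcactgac

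The 3 DR1 matches, at Pmp22, Nol4l and Fhad1, are each made of 2 AGGTCA cores and differ in the single base between them or in the flanks. Positions are in bases from the gene start, negative before it. The Pmp22 match is at -4612 and intergenic, the Nol4l match is at 8990 in an intron of Nol4l, and the Fhad1 DR1 is at -7242 in an intron of 4930455G09Rik. Of the other Fhad1 matches, the DR2 is at 5811 in an intron of Fhad1 and the DR5 is at -2642 in intergenic sequence. The Grasp DR5 is at 9944, beyond the end of the gene, and Grasp also had DR2 matches at -5868 and -5087. The Fignl2 DR2 is at -7281, and Tmem229b had no match of these letters in its window. A DR1 was found for 3 of 6 genes against 16.2% of all genes scanned, a DR2 for 3 of 6 against 26.2%, and a DR5 for 2 of 6 against 7.82%. In the 11 RefSeq promoters of these 6 genes (300 bases each) no DR1, DR2 or DR5 was found, and such matches occur in 0.222%, 0.268% and 0.0974% of all 32851 promoters. A match is a description of the letters and does not show binding.

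Libraries held 7408691 to 13052102 counts in the knockout table, 7835519 to 11453063 in the overexpression table and 28397794 to 33601996 in the enhancer table. All 8 genes passed the filter on low counts in each table. The receptor counts followed the labels in direction, but Rxra transcripts were lost only in part in its knockouts. Rara was at 5.34 and 4.36 counts-per-million (CPM) in Rarα-KO and 5.55 and 6.51 CPM in RARX-DKO, against 99.9 and 108 CPM in WT-RARX. Rxra kept 18.3 and 16.1 CPM in Rxrα-KO and 13.6 and 27.5 CPM in RARX-DKO, against 38.2 and 45.9 CPM in WT-RARX. The part of Rxra that was deleted is not given in the labels. Rara had 104 and 111 CPM in Rarα-OE, against 51.5 and 52.3 CPM in V-OE, and Rxra had 202 and 204 CPM in Rxrα-OE, against 45.6 and 42.8 CPM in V-OE. The mean of Rara in Rarα-OE, 107.5 CPM, was near its mean in WT-RARX, 104.2 CPM, while its mean in V-OE was 51.9 CPM. Mean Rxra was 44.2 CPM in V-OE and 42.0 CPM in WT-RARX. The tables were fitted separately, and levels were not tested between them. The 8 stem cell markers listed (Pou5f1, Sox2, Nanog, Zfp42, Esrrb, Klf4, Tfcp2l1 and Dppa5a) were detected in every group.

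In the knockouts, the values that chose the genes, 7 of 8 lay below WT-RARX without overlap in Rarα-KO, 8 of 8 in Rxrα-KO and 7 of 8 in RARX-DKO. The same held for 24.2%, 25% and 23.1% of all tested genes. The genes did not share 1 pattern across the 3 genotypes. Pmp22, Grasp, Tmem229b and Cotl1 were lowest in the double knockout, whereas Zfp703, Fignl2, Nol4l and Fhad1 were lowest in Rxrα-KO. RARX-DKO thus lay below Rxrα-KO without overlap for 4 genes and above it for 4, as for 22.3% and 22.8% of all tested genes. The log2 differences were small beside their SE for Cotl1 (-0.20, SE 0.14), Nol4l (0.19, SE 0.15) and Fignl2 (0.44, SE 0.22). They were widest for Pmp22 (-1.65, SE 0.34) and Fhad1 (2.98, SE 0.60).

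Pmp22 had 14.4 and 20.9 CPM in Rarα-KO, 5.45 and 8.50 CPM in Rxrα-KO and 2.49 and 1.90 CPM in RARX-DKO, against 26.1 and 26.5 CPM in WT-RARX. The 4 groups did not overlap, and the log2 fold changes were -0.58 (SE 0.26), -1.91 (SE 0.28) and -3.56 (SE 0.33), the last the deepest fall of the 8 genes in the double knockout. Cotl1 had 87.7 and 91.8 CPM in Rarα-KO, 56.0 and 60.4 CPM in Rxrα-KO and 47.7 and 53.3 CPM in RARX-DKO, against 159 and 171 CPM in WT-RARX. Its order over the groups was that of Pmp22.

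Grasp had 69.1 and 82.3 CPM in Rarα-KO, 91.4 and 80.8 CPM in Rxrα-KO and 43.6 and 46.5 CPM in RARX-DKO, against 127 and 139 CPM in WT-RARX. The single knockouts overlapped each other, and the double knockout lay below both. Tmem229b had 22.5 and 27.8 CPM in Rarα-KO, 37.3 and 34.5 CPM in Rxrα-KO and 16.4 and 18.9 CPM in RARX-DKO, against 59.4 and 70.1 CPM in WT-RARX. It fell further in Rarα-KO (log2 fold change -1.37, SE 0.18) than in Rxrα-KO (-0.85, SE 0.17), and Grasp likewise had -0.81 and -0.63 (SE 0.15 each). In the other 6 genes the value in Rxrα-KO was the lower one.

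Zfp703 had 44.6 and 73.0 CPM in Rarα-KO, 6.88 and 6.09 CPM in Rxrα-KO and 10.8 and 26.7 CPM in RARX-DKO, against 84.3 and 86.2 CPM in WT-RARX. Its fall in Rxrα-KO, a log2 fold change of -3.72 (SE 0.43), was the deepest of the 8 in any single knockout, and both double knockout libraries lay above both Rxrα-KO libraries. RARX-DKO replicate 2, the higher of the pair, also had a median deviation of 0.40 on the log2 scale over the 111 genes within 10 Mb of Zfp703, against -0.09 in RARX-DKO replicate 1, and the part of this in the Zfp703 value was not tested. Exons of Zfp703 overlap those of Gm45371, an antisense gene. Gm45371 had 1.82 and 2.16 CPM in Rxrα-KO, against 24.6 and 30.5 CPM in WT-RARX, and it had 0 counts in all 9 libraries of the enhancer table. Whether counting used strand is not given in the sources used here, so reads of the pair cannot be told apart in the knockout and overexpression tables.

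Fignl2 had 44.6 and 59.8 CPM in Rarα-KO, 14.0 and 20.8 CPM in Rxrα-KO and 25.6 and 21.4 CPM in RARX-DKO, against 65.8 and 69.7 CPM in WT-RARX. Nol4l had 40.8 and 42.7 CPM in Rarα-KO, 31.6 and 28.7 CPM in Rxrα-KO and 35.7 and 33.0 CPM in RARX-DKO, against 76.5 and 78.7 CPM in WT-RARX. Both genes lay below WT-RARX in all 6 knockout libraries. For Nol4l the surroundings moved as well. The 206 tested genes within 10 Mb of it on chromosome 2 had a median log2 fold change of -0.42 in Rarα-KO, -0.48 in Rxrα-KO and -0.41 in RARX-DKO, so that Nol4l was 0.48, 0.89 and 0.77 below that median on the log2 scale. The comparisons share the WT-RARX libraries. The median deviation of this window on the log2 scale was 0.315 to 0.381 in the WT-RARX libraries. It was -0.10 to -0.09 in Rarα-KO, -0.132 to -0.10 in Rxrα-KO and -0.11 to -0.081 in RARX-DKO. The part of the window in the Nol4l values was not tested. The same window had medians near 0 in the overexpression table, -0.03 in Rarα-OE and 0.07 in Rxrα-OE.

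Fhad1 was the exception among the 8. It had 4.80 and 5.01 CPM in Rarα-KO, 0.13 and 0.51 CPM in Rxrα-KO and 2.27 and 2.99 CPM in RARX-DKO, against 3.59 and 2.91 CPM in WT-RARX. It was thus higher than WT-RARX in Rarα-KO, at 1 and 4 counts in the Rxrα-KO libraries, and overlapped WT-RARX in the double knockout. The difference in Rarα-KO was small beside its SE (log2 0.60, SE 0.40). It rests on 45 and 46 counts, against 39 and 38 counts in WT-RARX. Of all tested genes 22.7% were higher without overlap in Rarα-KO. Its exons overlap those of the antisense gene Fhad1os2, so the reads of these genes cannot be told apart either.

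**Figure D1:**
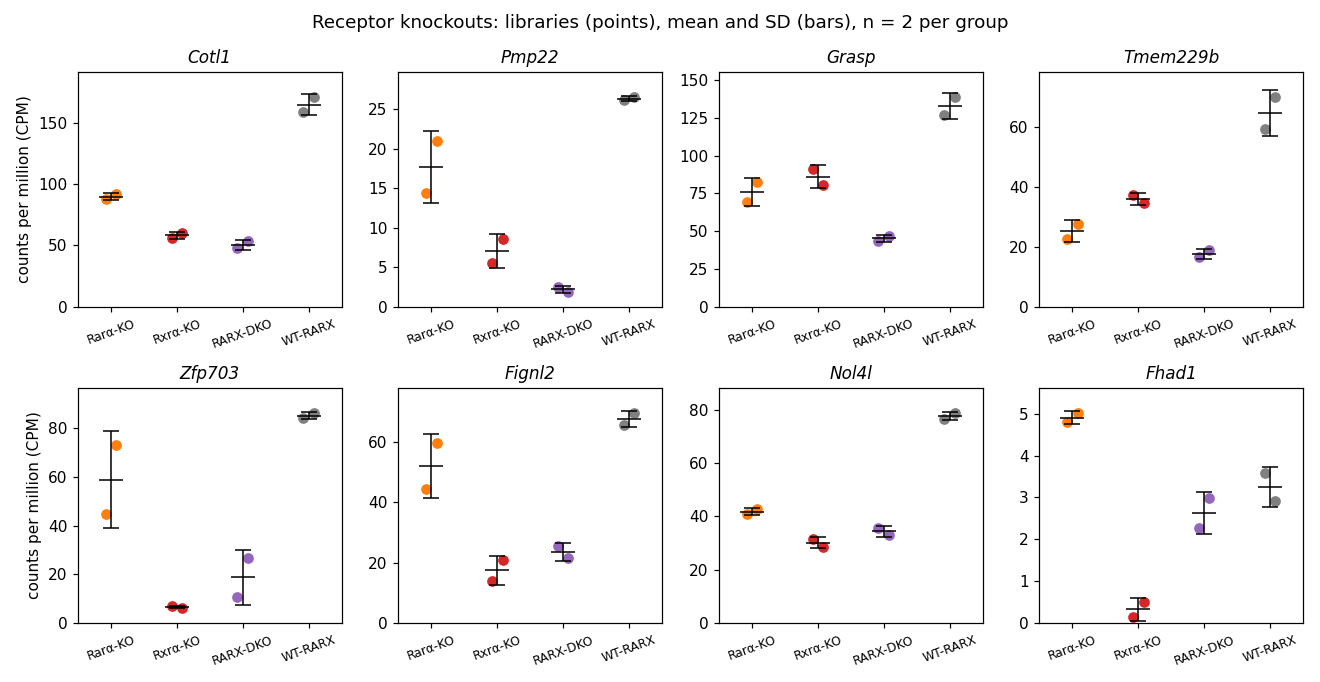
Counts-per-million (y axis, linear from 0) of the 8 genes in Rarα-KO, Rxrα-KO, RARX-DKO and WT-RARX. Points are libraries and bars show mean and SD (n = 2 each). Pmp22 steps down over Rarα-KO, Rxrα-KO and RARX-DKO, Zfp703 is lowest in Rxrα-KO at 6.88 and 6.09 CPM, and Fhad1 in Rarα-KO lies above WT-RARX.

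Levels can be set against each other only per length of transcript. In WT-RARX the order, as CPM per kb of merged exons, was Cotl1 (103 ± 5.51), Grasp (65.3 ± 4.21), Zfp703 (25.1 ± 0.398), Fignl2 (15.2 ± 0.608), Tmem229b (13.7 ± 1.60), Pmp22 (11.2 ± 0.122), Nol4l (8.54 ± 0.172) and Fhad1 (0.529 ± 0.0775) (SD, n = 2). Fignl2 and Tmem229b touched, at 14.8 CPM per kb in the lower and the higher of their libraries. The other neighbours in this order did not overlap. Cotl1 and Grasp were also the highest and Fhad1 the lowest in V-OE and WT-Cyp26.

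The overexpression libraries were used to ask whether genes that fell in a receptor knockout are higher where the receptor is overexpressed. In Rarα-OE 7 of the 8 genes, Fhad1 included, rose against V-OE, where 14.7% of 16914 tested genes were called higher (edgeR quasi-likelihood test, Benjamini-Hochberg adjusted p under 0.05). All 8 rose in Rxrα-OE against V-OE, where 31% of tested genes were called higher. The median log2 fold change of the 8 was 0.63 in Rarα-OE and 1.06 in Rxrα-OE, against 0.00 for all tested genes in each. The comparisons share the V-OE libraries. These rises are against V-OE, whose levels were not those of WT-RARX. Mean CPM of Cotl1, Grasp, Tmem229b, Zfp703, Fignl2 and Nol4l were lower in V-OE than in WT-RARX, and those of Pmp22 and Fhad1 were not. In Rarα-OE the means of Cotl1, Grasp, Tmem229b, Fignl2 and Nol4l stayed below WT-RARX, while those of Zfp703, Pmp22 and Fhad1 did not. Differences between the tables were not tested.

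Pmp22 rose most in both. It had 119 and 123 CPM in Rarα-OE and 249.5 and 245 CPM in Rxrα-OE, against 30.1 and 24.5 CPM in V-OE. The 3 groups were far apart, and the changes were 4.44-fold in Rarα-OE (log2 2.15, SE 0.07, edgeR adjusted p = 1.14e-30) and 9.10-fold in Rxrα-OE (log2 3.19, SE 0.07, edgeR adjusted p = 4.82e-41). Zfp703 followed the same order, with 86.2 and 93.5 CPM in Rarα-OE and 161 and 162 CPM in Rxrα-OE, against 42.7 and 44.4 CPM in V-OE. The rises were 2.06-fold (edgeR adjusted p = 1.42e-17) and 3.71-fold (edgeR adjusted p = 5.37e-31). Gm45371, whose reads cannot be separated from it, rose 1.74 on the log2 scale in Rxrα-OE beside 1.89 for Zfp703.

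Fhad1 rose far more in Rxrα-OE than in Rarα-OE. It had 5.91 and 7.80 CPM in Rarα-OE and 32.5 and 31.4 CPM in Rxrα-OE, against 3.25 and 4.07 CPM in V-OE. The rise was 1.83-fold in Rarα-OE (log2 0.88, SE 0.22, edgeR adjusted p = 0.00184) and 8.63-fold in Rxrα-OE (log2 3.11, SE 0.18, edgeR adjusted p = 6.9e-22). Its rise in Rarα-OE stands beside a value in Rarα-KO that was not lower than the control (log2 0.60, SE 0.40).

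Cotl1 had 97.0 and 96.9 CPM in Rarα-OE and 198 and 205 CPM in Rxrα-OE, against 93.2 and 77.9 CPM in V-OE. The rise in Rxrα-OE was 2.36-fold (log2 1.24, SE 0.06, edgeR adjusted p = 4.07e-24). The rise in Rarα-OE was small, 1.14-fold (log2 0.19, SE 0.07, edgeR adjusted p = 0.0285). It was not called by DESeq2 (adjusted p = 0.231) or without V-OE replicate 2, Rarα-OE replicate 1 or Rarα-OE replicate 2 (edgeR adjusted p = 0.634, 0.066 and 0.0513), and adjusted p ran over 0.000746 to 0.634 in 10 alternatives.

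Nol4l was the gene that did not pass in Rarα-OE. It had 46.2 and 49.5 CPM in Rarα-OE and 84.1 and 73.0 CPM in Rxrα-OE, against 45.3 and 45.5 CPM in V-OE. Its change was 1.05-fold in Rarα-OE (log2 0.07, SE 0.09, edgeR adjusted p = 0.579) and 1.72-fold in Rxrα-OE (log2 0.78, SE 0.08, edgeR adjusted p = 1.47e-12). Rarα-OE and V-OE did not overlap for Nol4l but lay within a few CPM of each other.

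Grasp, Tmem229b and Fignl2 rose less than 2-fold in both. Grasp had 102 and 104 CPM in Rarα-OE and 129 and 130 CPM in Rxrα-OE, against 72.7 and 69.0 CPM in V-OE, rises of 1.46-fold (edgeR adjusted p = 1.56e-09) and 1.83-fold (edgeR adjusted p = 1.01e-17). Fignl2 had 42.5 and 38.7 CPM in Rarα-OE and 45.8 and 43.0 CPM in Rxrα-OE, against 26.0 and 27.2 CPM in V-OE, rises of 1.53-fold (edgeR adjusted p = 1.93e-06) and 1.66-fold (edgeR adjusted p = 3.66e-09). Tmem229b had 35.3 and 31.7 CPM in Rarα-OE and 28.9 and 34.7 CPM in Rxrα-OE, against 23.3 and 19.8 CPM in V-OE, rises of 1.57-fold (edgeR adjusted p = 1.14e-05) and 1.49-fold (edgeR adjusted p = 2.01e-05). In all 3 genes every overexpression library lay above both V-OE libraries.

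**Figure D2:**
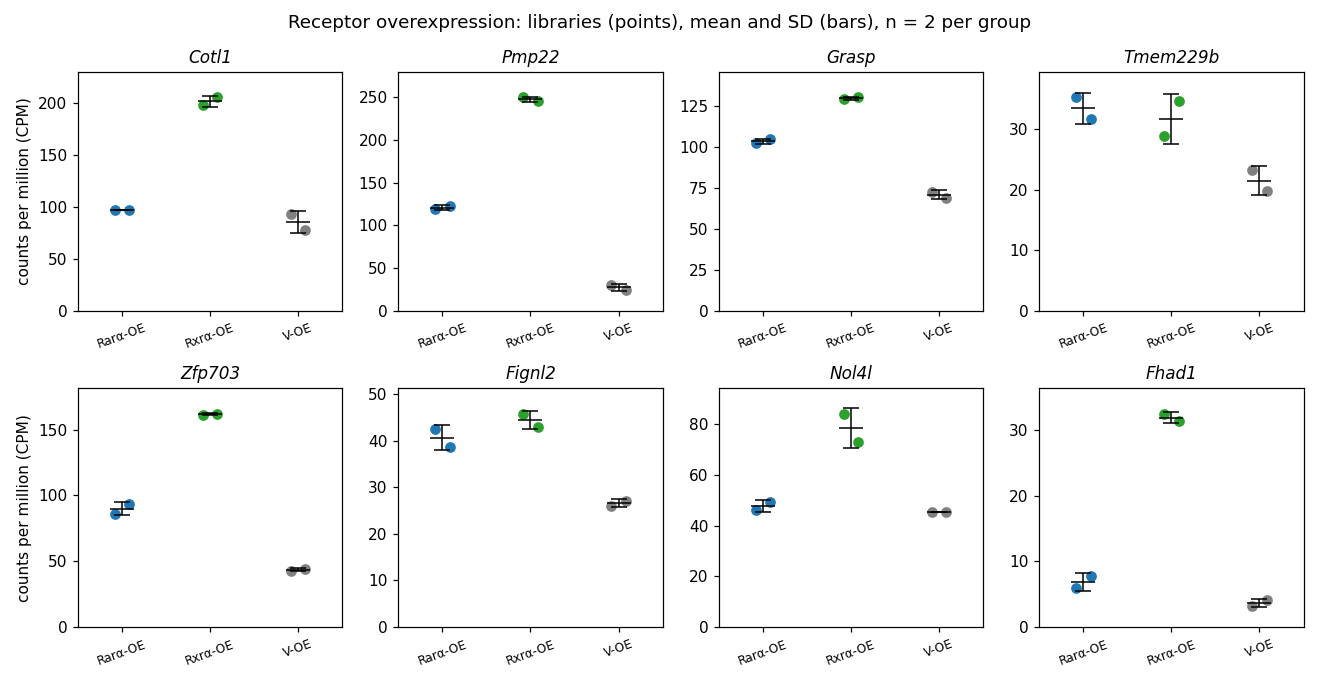
Counts-per-million (y axis, linear from 0) of the 8 genes in Rarα-OE, Rxrα-OE and V-OE. Points are libraries and bars show mean and SD (n = 2 each). Pmp22, Zfp703 and Fhad1 separate into 3 levels, Cotl1 and Nol4l stand out in Rxrα-OE, and Tmem229b overlaps between Rarα-OE and Rxrα-OE.

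Set directly against each other, 6 of the 8 genes were higher in Rxrα-OE than in Rarα-OE, where 23.8% of tested genes were called higher. The differences were 2.23 for Fhad1, 1.06 for Cotl1, 1.04 for Pmp22, 0.85 for Zfp703, 0.71 for Nol4l and 0.33 for Grasp on the log2 scale. Fignl2 (log2 0.12, SE 0.09, edgeR adjusted p = 0.289) and Tmem229b (log2 -0.07, SE 0.11, edgeR adjusted p = 0.624) did not pass. The amounts of added receptor were unequal, with Rara 2.07-fold up in Rarα-OE and Rxra 4.60-fold up in Rxrα-OE.

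Genes of the RA pathway moved in the same libraries. Of 28 listed genes of RA signalling, metabolism and response, 27 were tested. The list includes Rara, Rxra and Cyp26a1, so the counts of genes that rose include Rara in Rarα-OE and Rxra in Rxrα-OE, the overexpressed genes themselves. In Rarα-OE 18 rose and 2 fell, where 14.7% of all tested genes were called higher and 13.9% lower. The changes were led by Hoxb1, a hindbrain homeobox gene (log2 1.91, edgeR adjusted p = 2.41e-05), Cyp26c1, an RA hydroxylase (log2 1.65, edgeR adjusted p = 1.14e-12), and Aldh1a3, an RA-synthesising dehydrogenase (log2 1.59, edgeR adjusted p = 0.0335). In Rxrα-OE 21 rose and 3 fell, where 31% of all tested genes were called higher and 29.2% lower, led by the RA hydroxylase Cyp26b1 (log2 4.22, edgeR adjusted p = 2.09e-36) and the RA-binding protein gene Crabp2 (log2 3.51, edgeR adjusted p = 9.48e-23). The list's median log2 fold change was 0.60 in Rarα-OE and 1.181 in Rxrα-OE.

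Markers of other cell types moved too. The summed level of 8 primitive endoderm markers was 288 to 303 CPM in Rarα-OE and 324 to 329.5 CPM in Rxrα-OE, against 42.5 to 46.6 CPM in V-OE, with 8 of 8 tested and none at 0. The 5 genes listed as trophoblast markers (Cdx2, Elf5, Tfap2c, Krt8 and Krt18), 4 of them tested and none at 0, summed to 554 to 601 CPM in Rarα-OE and 633 to 663 CPM in Rxrα-OE, against 85.7 to 89.3 CPM in V-OE. The 4 tested were called higher in both. Among them the keratin genes Krt18 and Krt8 had log2 fold changes of 3.83 and 2.52 in Rarα-OE and 4.07 and 2.515 in Rxrα-OE. The 8 stem cell markers summed to 7191 to 7202 CPM in Rarα-OE and 2743 to 2766 CPM in Rxrα-OE, against 8152 to 8306 CPM in V-OE. Of them 2 were called higher and 6 lower in Rarα-OE, and 0 higher and 7 lower in Rxrα-OE. The 6 neuroectoderm markers, 4 of them tested, summed to 38.7 to 42.95 CPM in Rarα-OE and 27.35 to 28.2 CPM in Rxrα-OE, against 72.6 to 82.1 CPM in V-OE. The mesoderm sum was 22.8 to 24.9 CPM in Rarα-OE and 12.6 to 12.9 CPM in Rxrα-OE, against 21.6 to 21.7 CPM in V-OE. In the knockouts the endoderm sum was 44.4 to 55.8 CPM in Rarα-KO, 167 to 175.5 CPM in Rxrα-KO and 28.0 to 33.5 CPM in RARX-DKO, against 107.5 to 112.5 CPM in WT-RARX, so it was above the control in Rxrα-KO, where all 8 genes were below it. Of the 8 endoderm markers 0 were called in Rxrα-KO, while 1 was called lower in Rarα-KO and 6 in RARX-DKO. The stem cell sum was 6722 to 8003 CPM in Rarα-KO, 6204 to 6335 CPM in Rxrα-KO and 6788 to 7533 CPM in RARX-DKO, against 5600 to 5687 CPM in WT-RARX, so it was above the control in all 3. In bulk RNA a change in the number of cells of a type and a change in RNA per cell cannot be told apart, and the part of these shifts in the results for the 8 genes was not tested.

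The same question was put to all genes. Of 15976 genes tested in both tables, 254 were at least 2-fold lower in Rarα-KO, and 77 of these (30.3%) were called higher in Rarα-OE, against 14.8% of all, making up 3.25% of the genes called higher there. Of 733 genes at least 2-fold lower in Rxrα-KO, 407 (55.5%) were called higher in Rxrα-OE, against 30.4% of all, making up 8.39% of those called higher. By that 2-fold limit 1 of the 8 genes, Tmem229b, counts among the Rarα-KO set and 6 among the Rxrα-KO set. In the crossed pairs, 121 of the 254 genes (47.6%) were called higher in Rxrα-OE, against 30.4% of all. Of the 733 genes, 190 (25.9%) were called higher in Rarα-OE, against 14.8% of all. Shares above those of all genes were thus not limited to overexpression of the receptor that was lost. No test was made on these shares.

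In the enhancer deletions neither receptor gene was itself targeted, although the level of Rara was lower, as given further on. Cyp26a1, the main RA hydroxylase, had 55.8, 33.7 and 58.7 CPM in Cyp26-E1-KO and 386, 363 and 391 CPM in Cyp26-E2-KO, against 378, 367.5 and 385 CPM in WT-Cyp26. In Cyp26-E1-KO 6 of the 8 genes fell, where 12.1% of 18768 tested genes were called lower. In Cyp26-E2-KO 5 of the 8 fell, where 8.2% were called lower. The comparisons share the WT-Cyp26 libraries. The median log2 fold change of the 8 was -0.63 and -0.73, against -0.01 and 0.00 for all tested genes.

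Zfp703 fell most among the genes with more than a few counts. It had 31.8, 33.3 and 34.1 CPM in Cyp26-E1-KO and 53.9, 52.4 and 51.3 CPM in Cyp26-E2-KO, against 104, 103 and 100.3 CPM in WT-Cyp26. The 3 groups did not overlap, with log2 fold changes of -1.63 (SE 0.07, edgeR adjusted p = 2.13e-09) and -0.96 (SE 0.07, edgeR adjusted p = 5.05e-07). Zfp703 was 1.59-fold higher in Cyp26-E2-KO than in Cyp26-E1-KO (edgeR adjusted p = 4.93e-05).

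Fignl2 had 24.6, 25.7 and 25.3 CPM in Cyp26-E1-KO and 26.8, 26.4 and 24.7 CPM in Cyp26-E2-KO, against 49.4, 49.0 and 47.3 CPM in WT-Cyp26. It fell by 0.95 and 0.90 on the log2 scale (edgeR adjusted p = 9.76e-07 and 3.76e-06). Cotl1 had 107, 91.4 and 111 CPM in Cyp26-E1-KO and 123.5, 104 and 109.9 CPM in Cyp26-E2-KO, against 163.5, 171 and 173 CPM in WT-Cyp26. Its log2 fold changes were -0.72 (edgeR adjusted p = 2.43e-05) and -0.59 (edgeR adjusted p = 0.000233), with no overlap with the control.

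Nol4l had 35.0, 30.3 and 27.9 CPM in Cyp26-E1-KO and 26.1, 22.4 and 25.3 CPM in Cyp26-E2-KO, against 46.7, 45.7 and 43.4 CPM in WT-Cyp26. Its log2 fold changes were -0.54 (edgeR adjusted p = 0.000886) and -0.88 (edgeR adjusted p = 3.34e-05). Here too its 10-Mb surroundings were lower, with a median log2 fold change of -0.22 in Cyp26-E1-KO and -0.24 in Cyp26-E2-KO over 239 genes, and their part in the Nol4l result was not tested.

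Tmem229b had 35.5, 39.2 and 36.6 CPM in Cyp26-E1-KO and 47.9, 47.3 and 43.8 CPM in Cyp26-E2-KO, against 49.4, 53.9 and 54.1 CPM in WT-Cyp26. It fell in Cyp26-E1-KO (log2 -0.50, SE 0.08, edgeR adjusted p = 0.000262), while its value in Cyp26-E2-KO did not pass (log2 -0.18, SE 0.08, edgeR adjusted p = 0.125). The difference between the deletions, 0.32 on the log2 scale, passed (edgeR adjusted p = 0.0286), but not with only these groups in the fit, without Cyp26-E1-KO replicate 1 or 3, or without any single Cyp26-E2-KO replicate, and adjusted p ran over 0.000874 to 0.121 in 12 alternatives. Tmem229b and Zfp703 were the 2 genes called higher in Cyp26-E2-KO than in Cyp26-E1-KO, where 2.02% of tested genes were.

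Fhad1 was near the limit of detection in this table. It had 7, 12 and 5 counts in Cyp26-E1-KO and 5, 15 and 6 counts in Cyp26-E2-KO, against 32, 28 and 22 counts in WT-Cyp26. The log2 fold changes were -1.70 (SE 0.55, edgeR adjusted p = 0.0345) and -1.71 (SE 0.54, edgeR adjusted p = 0.0425). In Cyp26-E1-KO the call was lost without any WT-Cyp26 replicate or without Cyp26-E1-KO replicate 1 or 3, and in Cyp26-E2-KO without any WT-Cyp26 replicate or without Cyp26-E2-KO replicate 1 or 3. Adjusted p ran over 0.014 to 0.113 and 0.0121 to 0.163 in 12 alternatives each.

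Pmp22 and Grasp did not pass in either deletion. Pmp22 had 33.4, 35.0 and 35.3 CPM in Cyp26-E1-KO and 34.1, 36.4 and 36.3 CPM in Cyp26-E2-KO, against 35.7, 37.8 and 41.9 CPM in WT-Cyp26 (edgeR adjusted p = 0.195 and 0.409). Grasp had 108, 79.9 and 104 CPM in Cyp26-E1-KO and 119, 95.2 and 115 CPM in Cyp26-E2-KO, against 101, 97.2 and 104 CPM in WT-Cyp26 (edgeR adjusted p = 0.797 and 0.495). Pmp22, the gene with the largest rise in both overexpression lines, was thus among the least changed here.

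**Figure D3:**
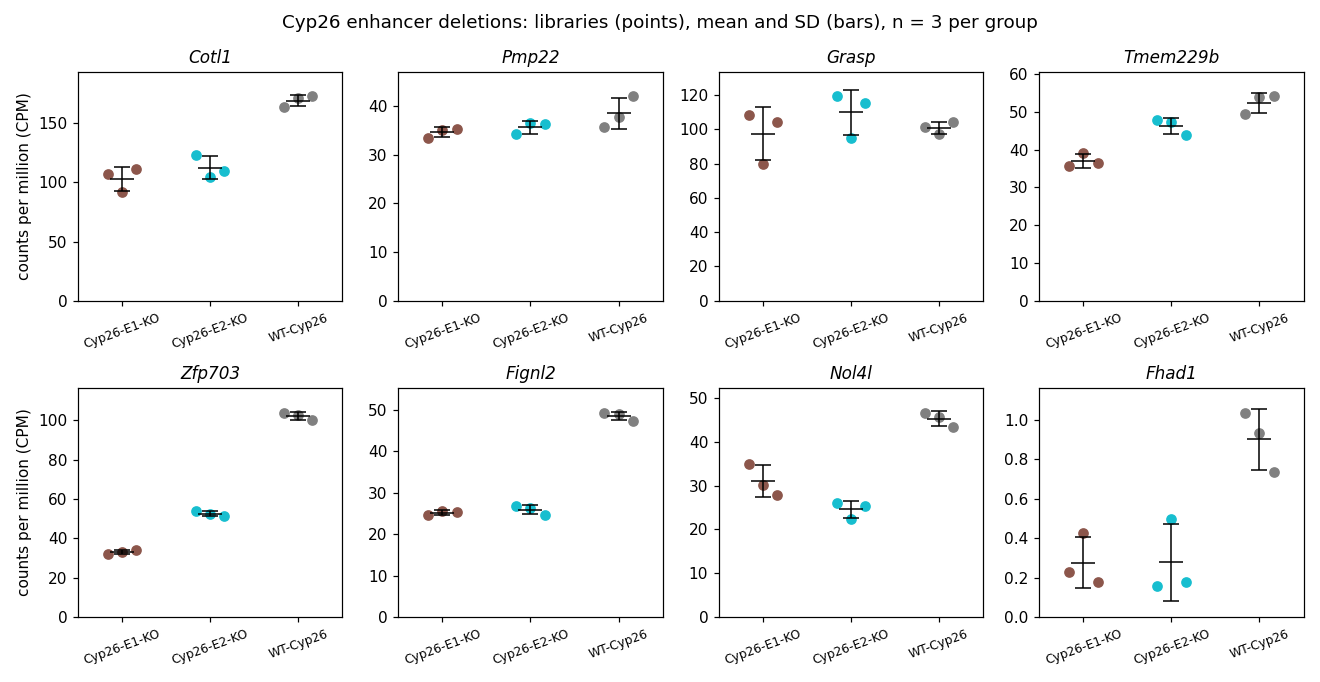
Counts-per-million (y axis, linear from 0) of the 8 genes in Cyp26-E1-KO, Cyp26-E2-KO and WT-Cyp26. Points are libraries and bars show mean and SD (n = 3 each). Zfp703 and Fignl2 lie well below WT-Cyp26 in both deletions, Grasp overlaps it, and Fhad1 stays near or under 1 CPM throughout.

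Of the 28 RA pathway genes, all tested in this table, 6 rose and 12 fell in Cyp26-E1-KO, where 13.1% of all tested genes were called higher and 12.1% lower. The changes were led by Cyp26c1 (log2 -3.36), Cyp26a1 (log2 -2.93) and Hoxb1 (log2 -1.54). In Cyp26-E2-KO 2 rose and 6 fell, where 9.28% of all tested genes were called higher and 8.2% lower, led by Cyp26b1 (log2 -2.18), the retinol dehydrogenase gene Rdh10 (log2 0.95) and the caudal homeobox gene Cdx1 (log2 -0.84). Rara itself was lower, at 70.7, 62.2 and 73.0 CPM in Cyp26-E1-KO and 78.1, 72.6 and 76.4 CPM in Cyp26-E2-KO, against 96.6, 104 and 98.5 CPM in WT-Cyp26 (edgeR adjusted p = 9.54e-05 and 0.00177), while Rxra had log2 fold changes of 0.28 in Cyp26-E1-KO (edgeR adjusted p = 0.0182) and 0.13 in Cyp26-E2-KO (edgeR adjusted p = 0.306). The 5 mesoderm markers, 4 of them tested and none at 0, summed to 52.6 to 58.7 CPM in Cyp26-E1-KO and 51.5 to 53.0 CPM in Cyp26-E2-KO, against 25.4 to 27.8 CPM in WT-Cyp26. The stem cell sum was 2308 to 3184 CPM in Cyp26-E1-KO and 2737 to 2898 CPM in Cyp26-E2-KO, against 3213 to 3318 CPM in WT-Cyp26. The endoderm sum was 375 to 382 CPM in Cyp26-E1-KO and 445 to 459.7 CPM in Cyp26-E2-KO, against 355 to 371 CPM in WT-Cyp26. The trophoblast sum was 87.8 to 94.8 CPM in Cyp26-E1-KO and 68.0 to 80.9 CPM in Cyp26-E2-KO, against 70.5 to 75.6 CPM in WT-Cyp26. The stem cell sum was thus lower and the mesoderm and endoderm sums higher in both deletions. The markers of a list did not all move alike. In Cyp26-E1-KO 2 of 8 endoderm markers were called higher and 3 lower (median log2 fold change -0.006). Of the 8 stem cell markers 2 were called higher and 3 lower there. In Cyp26-E2-KO 5 endoderm markers were called higher and 0 lower, and 0 stem cell markers higher and 3 lower. The part of these sums in the results for the 8 genes was not tested.

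**Figure D4:**
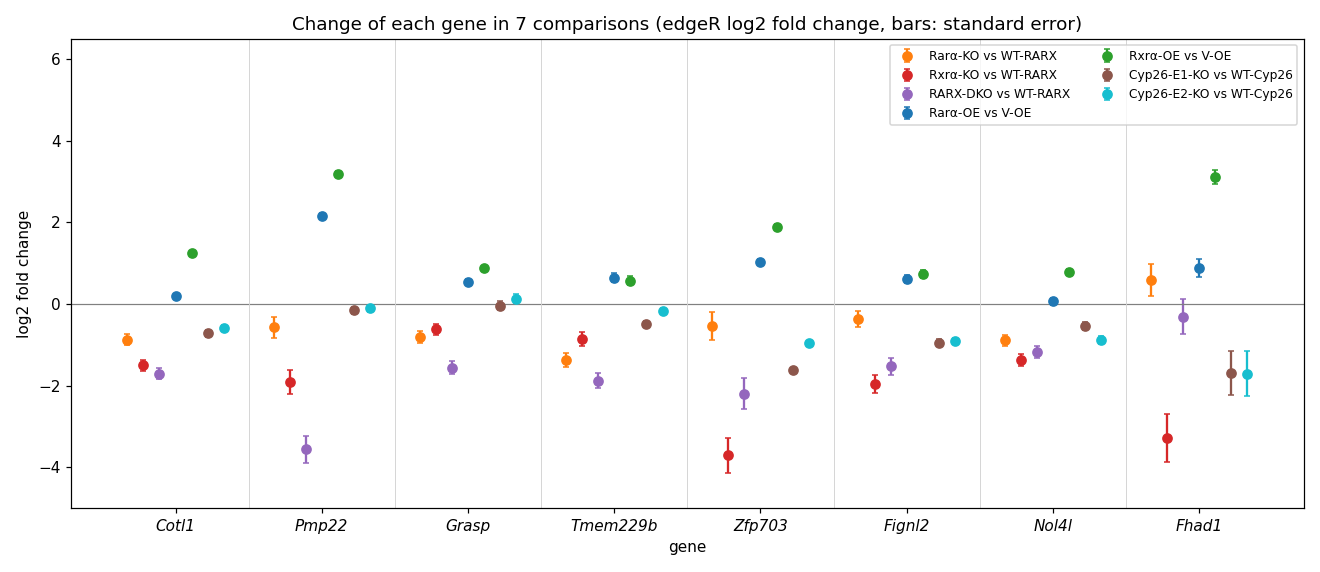
Log2 fold change (y axis) of each gene (x axis) in 7 comparisons, with bars for the standard error of the edgeR fit. The rule of choice uses the knockout values and not the overexpression or enhancer values. Pmp22 spans the widest range, -3.56 in RARX-DKO to 3.19 in Rxrα-OE, with values near 0 in both enhancer deletions.

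The 8 genes differed in how they stood among the genes beside them on the chromosome. Tested genes that start within 1 Mb numbered 13 to 35 per gene. In Rxrα-OE none of the 27 neighbours of Pmp22, none of the 20 of Zfp703 and none of the 29 of Fhad1 had a larger log2 fold change, and the medians of these neighbours were -0.09, 0.36 and 0.30. The neighbours of Tmem229b had a median log2 fold change of 0.61 over 13 genes beside 0.58 for Tmem229b in Rxrα-OE, and 7 of them had a larger one. A larger one was also found for 11 of 34 neighbours of Grasp, 11 of 28 of Fignl2, 5 of 28 of Nol4l and 2 of 27 of Cotl1. The highest neighbour of Zfp703 was its antisense partner Gm45371. In Cyp26-E1-KO none of the 18 neighbours of Zfp703 fell further. Fignl2 and Grasp are neighbours, and the tested genes between them are Acvr1b and Acvrl1, which code for receptors of the TGF-beta family. Acvr1b changed by -0.15 in Rarα-OE (edgeR adjusted p = 0.146) and 0.24 in Rxrα-OE (edgeR adjusted p = 0.00342), and Acvrl1 by 0.43 and 0.29 (edgeR adjusted p = 0.264 and 0.382), on the log2 scale.

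**Figure D5:**
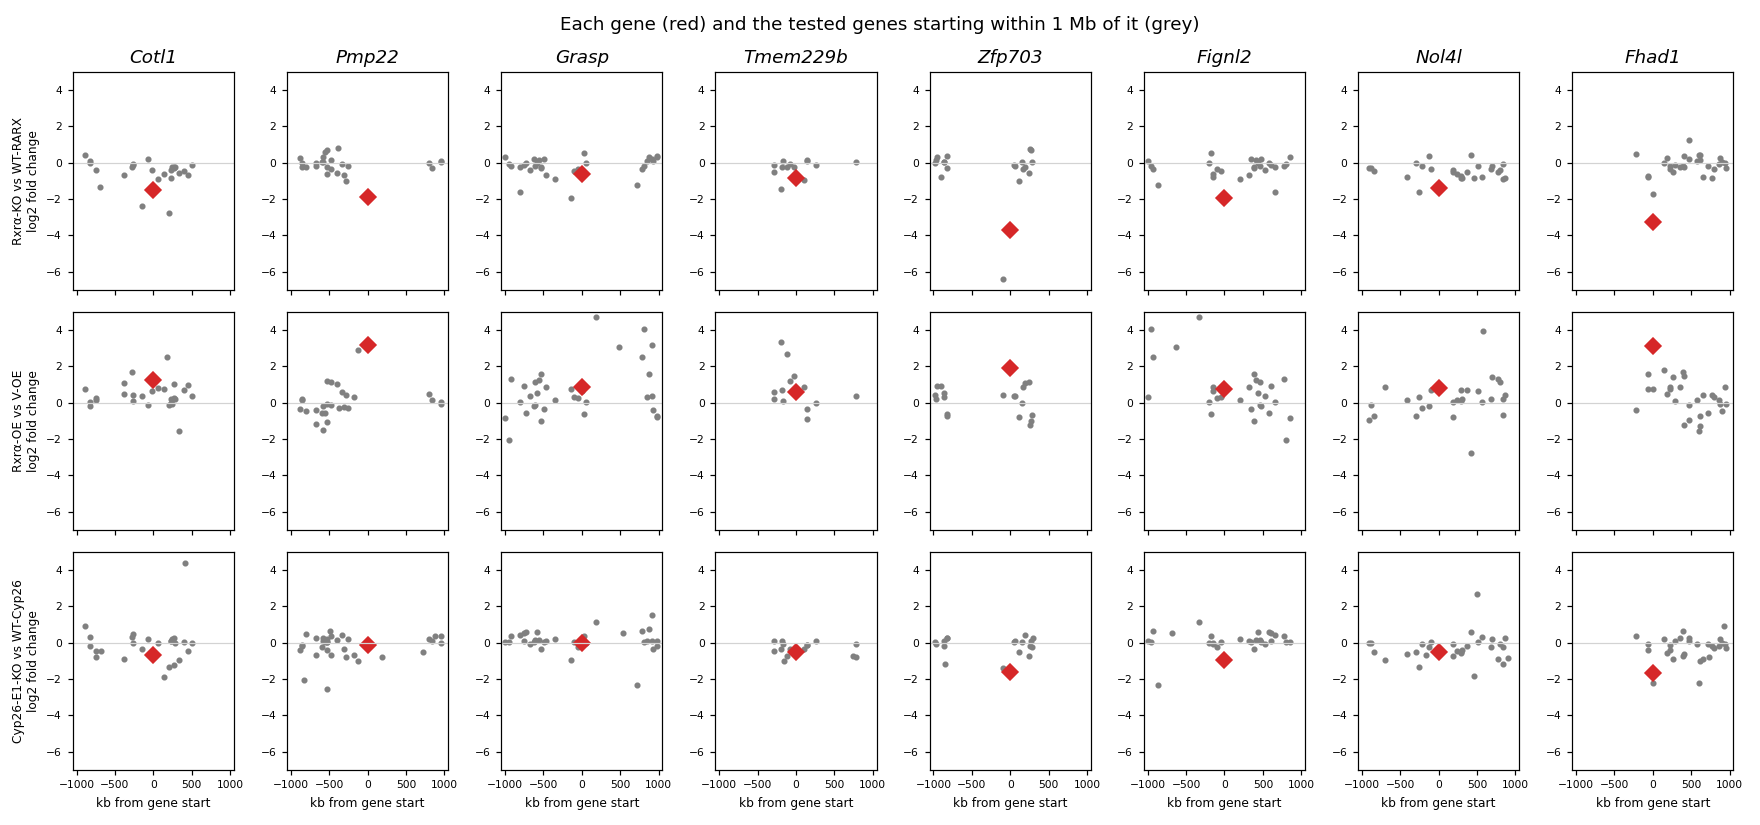
Log2 fold change (y axis) of each gene (red) and of tested genes starting within 1 Mb (grey) by distance from the gene start in kb (x axis), for Rxrα-KO, Rxrα-OE and Cyp26-E1-KO against their controls. Pmp22, Zfp703 and Fhad1 are the highest points in Rxrα-OE, while Tmem229b lies among its neighbours. The lowest grey point beside Zfp703 in Rxrα-KO is a fitted value of a gene with 0 counts in both Rxrα-KO libraries and is no measure of size.

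Across the 23 libraries, each centred on its gene's mean in its own table, the 8 genes varied together to different degrees. These correlations share libraries and the knockout values that chose the genes, and they are a description. Against the mean of the other 7, Pearson's r was highest for Cotl1 (0.935), Fignl2 (0.904) and Zfp703 (0.893) and lowest for Fhad1 (0.659), Grasp (0.652) and Tmem229b (0.601). The closest pairs were Zfp703 with Fignl2 (0.923), Cotl1 with Nol4l (0.903) and Grasp with Tmem229b (0.873), and the least alike were Tmem229b and Fhad1 (0.124). Among 11940 other genes with a mean log2 CPM of 1 or more in each table, the 5 most like the mean of the 8 were Ptpru, a receptor tyrosine phosphatase gene (0.949), Sorcs2, a sortilin family receptor gene (0.936), Tctn1, a gene of the ciliary transition zone (0.924), Mertk, a receptor tyrosine kinase gene (0.923), and Cdx1 (0.922). Ptpru had a log2 fold change of -2.95 in Rxrα-KO, 2.53 in Rxrα-OE and -0.77 in Cyp26-E1-KO. Among the genes most like a single one of the 8 were Gfra3 for Cotl1 (0.916), Dsc2 for Pmp22 (0.949), Mrc2 for Grasp (0.922), Agpat3 for Tmem229b (0.884), Samhd1 for Nol4l (0.948) and Lrp1 for Fhad1 (0.901).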

How the data were processed

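The authors deposited raw counts of reads per gene for 23 RNA-seq libraries in 3 tables. Per the submitters' processing notes, mm10 was the build and HISAT2 2.1.0, HTSeq 0.9.1 and DESeq2 1.18.1 are among the tools, without roles. Strand of counting is not given in the sources used here. The 4C-seq files and the ChIP-seq samples were not used.

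Each table was fitted once, with every group in it, in edgeR 4.0.16 (R 4.3.3). Genes were kept by filterByExpr (minimum count 10), libraries were scaled by TMM, and a robust quasi-likelihood test was followed by Benjamini-Hochberg adjustment over all tested genes (16445, 16914 and 18768 in the knockout, overexpression and enhancer tables) at 0.05. SE was taken as the size of the log2 fold change divided by the root of the F statistic. CPM are counts over TMM-scaled totals, and correlations used log2 CPM with 2 as prior count. Of 52636 identifiers of the enhancer table, 52403 matched a symbol. All columns of sample values were used. The fit was tested on simulated data.

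The 8 genes and the gene lists were chosen with earlier results of these data known. Named besides them are Rara, Rxra and Cyp26a1, up to 3 called pathway genes per comparison with the largest change, tested genes between Fignl2 and Grasp, and the genes most alike. Some genes that this rule names are not reported here. Gm45371, and the genes in the closing section, were chosen after their values were seen. Alternatives were RLE size factors, library totals, no filter, DESeq2 1.42.0, only the groups compared, a replicate block, and each library left out. Replicates differed by more than counting error (variance ratios of 1.99 to 44.47, the highest in Cyp26-E1-KO), so none was counted as a duplicate. Same-numbered libraries of Cyp26-E2-KO and Cyp26-E1-KO deviated together (correlations of 0.202, 0.402 and 0.118), a pairing that comes from the data, while in each of the other tested comparisons at least 1 pair had a correlation of 0.061 or lower.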

Additional observations from a re-analysis of the deposited data

How the results depend on the processing

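No value of the 8 genes that was called reversed under the alternatives run, and the number of the 8 called stayed within 1.5 times in 61 of 66 recomputations. The others all concern Cyp26-E2-KO against Cyp26-E1-KO, where 1 gene in place of 2 was called with only the groups compared in the fit. With 1 library left out the count ran over 1 to 3 there, 6 to 7 in Rarα-OE, 8 to 8 in Rxrα-OE, 6 to 6 in Rxrα-OE against Rarα-OE, 5 to 6 in Cyp26-E1-KO and 4 to 5 in Cyp26-E2-KO. The median log2 fold change of the 8 ran over -0.92 to -0.51 in Rarα-KO, -1.90 to -1.54 in Rxrα-KO and -1.69 to -1.57 in RARX-DKO. With the replicate number as a block the counts of genes called stayed at 7, 8, 6, 6, 5 and 2, and no call on the 8 genes changed. The numbers of all genes called moved more. DESeq2 called 2416 genes in Rarα-OE against V-OE where edgeR called 4827, and 5024 where edgeR called 7978 in Rxrα-OE against Rarα-OE. In Cyp26-E2-KO against Cyp26-E1-KO edgeR called 842 genes, DESeq2 1283, edgeR without the filter 1384 and with only those groups 339, and with 1 library left out 310 to 1849. In Cyp26-E2-KO against WT-Cyp26 edgeR called 3280, 5731 with only those groups, and 1978 to 2219 with 1 library left out. The causes were not tested. With 2 libraries a group, leaving out 1 assumes that the other varies like the rest of the table. The low counts of Fhad1 limit the precision of its values.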

Other observations

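Beside 3 of the 8 genes a non-coding or little-described neighbour was seen to move in some of the same comparisons. They were chosen after their values were seen, and all have low counts. Cdrt4os1, which starts at -124.8 kb from the Pmp22 start (negative is upstream), had 2 and 8 counts in Rarα-OE and 13 and 14 counts in Rxrα-OE, against 1 and 2 counts in V-OE, and its rise in Rxrα-OE passed (log2 2.90, SE 0.82, edgeR adjusted p = 0.00191) while that in Rarα-OE did not (edgeR adjusted p = 0.205). In Cyp26-E1-KO its value did not pass (log2 -0.995, SE 0.41, edgeR adjusted p = 0.0924). Pmp22 did not pass there either, with a smaller change (log2 -0.15, SE 0.08). 4930455G09Rik, which starts at -2.8 kb from Fhad1, had 41 and 63 counts in Rxrα-OE, against 27 and 27 counts in V-OE (log2 0.76, SE 0.30, edgeR adjusted p = 0.024). It had 8, 3 and 2 counts in Cyp26-E1-KO, against 14, 24 and 27 counts in WT-Cyp26 (log2 -2.25, SE 0.64, edgeR adjusted p = 0.019). It did not pass in Rarα-OE (log2 0.00, edgeR adjusted p = 0.994) or in Cyp26-E2-KO (log2 -1.64, edgeR adjusted p = 0.0774), where Fhad1 did. 2310008N11Rik, at -92.9 kb from Zfp703, had 0 counts in both Rxrα-KO libraries and 3 and 18 counts in RARX-DKO, against 13 and 14 counts in WT-RARX, and no change of it passed in the overexpression or enhancer comparisons with a control.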
